A study of Homo sapiens with 8 samples.

Results

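Integrins are receptors of the cell surface that join an alpha and a beta chain and tie the cytoskeleton to the matrix outside. The alpha chain and its partner decide which matrix protein is bound: fibronectin and other proteins with an RGD motif (arginine, glycine, aspartate), collagens, or laminins. Laminins are trimers of an alpha, a beta and a gamma chain that polymerise into the basement membrane, the thin sheet on which mesothelial and epithelial cells rest. All rows of the deposited table whose symbol named an integrin alpha or beta chain or a laminin chain were taken, which gave 39 of 20323 rows: 18 integrin alpha, 9 integrin beta and 12 laminin rows. They carried 38 symbols, because 2 rows were labelled ITGB3. The members were chosen by symbol, not by their values.

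Messenger RNA was sequenced from H2452, an established human cell line of biphasic pleural mesothelioma with a genotype labelled wild type. The treated group of 4 libraries had received deoxypodophyllotoxin (DPT) at 20 nM over 48 h. DPT is a lignan from plants and an inhibitor of microtubule assembly. The control group of 4 had received the solvent DMSO over the same 48 h. The series describes the libraries of a group as biological replicates. All come from this single line, no culture day or batch is labelled, and p-values measure the spread between these libraries only.

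Rounded library totals were 14964422 to 17205395 counts. DMSO replicate 3 and DPT replicate 2, called the pair here, stood apart. They scored 40.76 and 29.26 on the first principal component of log2 CPM (counts scaled to a common library size), against -25.6 to -1.02 for the other 6 libraries. Results are therefore given for all 8 libraries, and with a model term that separates these 2 libraries from the rest (the pair term), or without them, where that alters a call. Of 10 mesothelial markers all 10 were tested, 0 rose and 2 fell in 8 libraries, beside 5.68% and 5.29% of all tested genes. With the pair term 2 mesothelial markers were higher and 5 lower, beside 16.9% and 17.0% of all tested genes. Their summed level was 1399 to 1864 CPM in DMSO and 965.5 to 1279 CPM in DPT. Mesothelin (MSLN), calretinin (CALB2) and WT1 were present at 16.3, 9.49 and 8.17 CPM in DMSO, while KRT5 and LRRN4 were at 1.33 and 0.379 CPM. Of 10 leukocyte markers 2 passed the filter on low counts, ITGAX and CD14, and 0 were called in 8 libraries. With the pair term ITGAX was higher (0.47, adjusted p = 0.00197) and CD14 lower (-0.59, adjusted p = 0.000151), beside 16.9% and 17.0% of all tested genes. CD14 was at 7.42 to 26.3 CPM in DMSO and 5.39 to 17.4 CPM in DPT, lowest in the pair in both groups. PTPRC, the leukocyte antigen CD45, had at most 9 counts in a library, and MS4A1 had 0 in all 8. The summed leukocyte marker level was 16.5 to 38.6 CPM in DMSO and 15.9 to 36.3 CPM in DPT. Of 7 endothelial markers 3 were tested and 1, TIE1, rose, beside 5.68% of all tested genes. With the pair term 2 endothelial markers were higher, beside 16.9% of all tested genes. The summed endothelial marker level was 5.84 to 9.82 CPM in DMSO and 8.15 to 16.2 CPM in DPT, with EMCN at 0 in all 8 libraries. KRT18, a keratin, fell by 0.65 log2 (adjusted p = 0.0149), a call absent without DPT replicate 3 or 4 (adjusted p 0.0519 to 0.0561), and UPK3B, a uroplakin, fell by 1.07 log2 (adjusted p = 0.0271), a call absent without DMSO replicate 1 or 4 or DPT replicate 1 or 3 (adjusted p 0.0649 to 0.0841). TIE1, an endothelial receptor, rose by 0.98 log2 (adjusted p = 0.0308), a call absent on leaving out any library but those of the pair (adjusted p 0.0728 to 0.0955). The part of these markers in the results below was not tested.

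A total of 27 member rows passed the filter on low counts and 12 did not. Of the 27 tested, 5 were called higher in DPT (18.5%) and 6 lower (22.2%), at an adjusted p under 0.05 in edgeR's quasi-likelihood test. Among all 12648 tested genes 5.68% were called higher and 5.29% lower. The higher members included the integrin chains ITGA2 and ITGB3 and the laminin chains LAMA2 and LAMB3. The lower members were the integrin chains ITGA11, ITGB4 and ITGB8 and the laminin chains LAMA4, LAMB2 and LAMC1. The median log2 fold change was -0.10 over the tested members and -0.00 over all tested genes. The pair term gave 9 higher and 12 lower members, where 16.9% and 17.0% of all tested genes were called higher and lower (34.0% in either direction). Without the pair, 10 members were higher and 11 lower, where 17.0% and 17.1% of all tested genes were called (34.1% in either direction). Leaving out DMSO replicate 1 or 4 or DPT replicate 1 reduced the higher members to 3. Leaving out DMSO replicate 2 or DPT replicate 3 or 4 reduced them to 2. The lower members were 3 when DMSO replicate 1 was left out. For fits that left out a single library, here and below, the shares of all tested genes called were not computed. In bulk RNA a smaller share of cells that express a gene and less of its RNA per cell cannot be told apart.

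**Figure D1:**
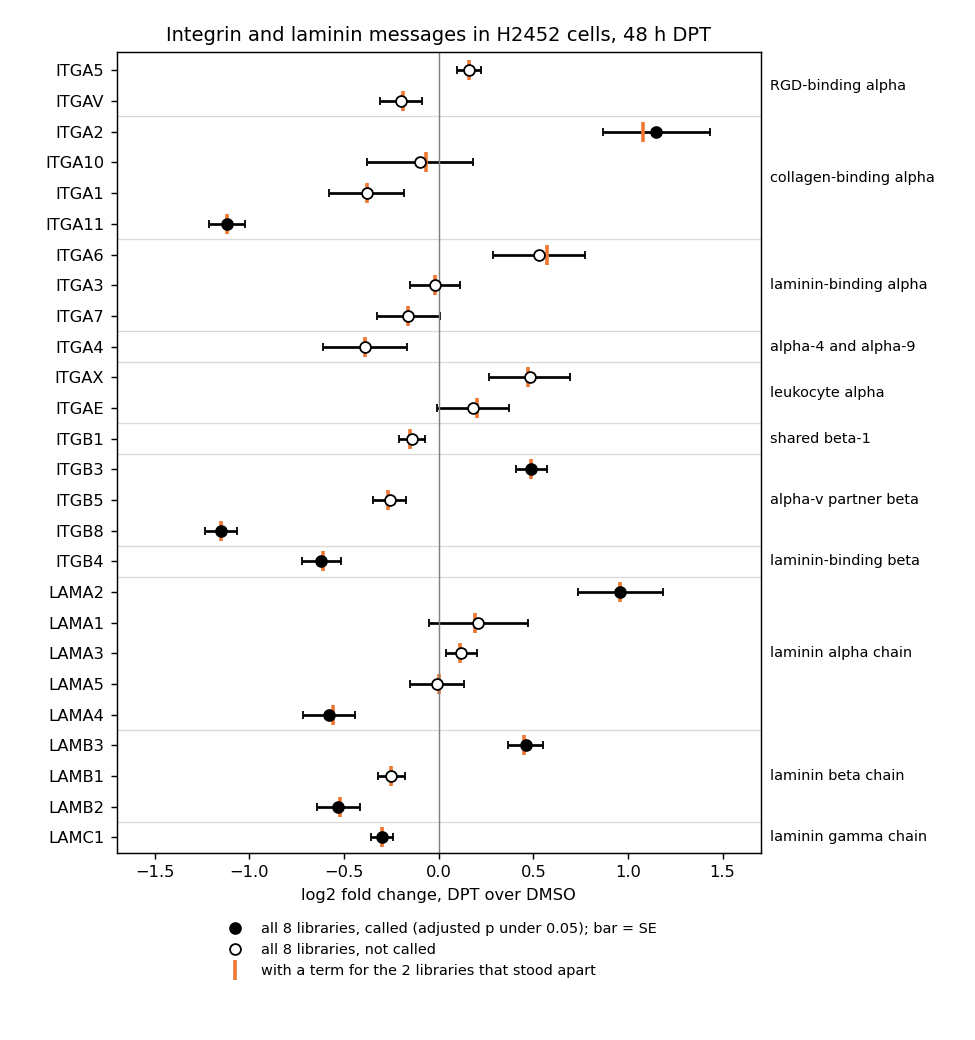
Log2 fold change of DPT over DMSO (x axis) for tested integrin and laminin genes, grouped by ligand or chain class. Circles with SE bars are from all 8 libraries, filled where called, and orange ticks are with the pair term. The widest class is the collagen-binding chains, with ITGA2 at 1.15 and ITGA11 at -1.12.

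The most abundant integrin chains were not called. ITGB1, the beta chain shared by most integrins, was highest at 1191 ± 14.6 FPKM in DMSO and 1111 ± 97.1 FPKM in DPT (mean ± SD, n = 4 per group; FPKM scales fragments by gene length and library size). ITGA3, a laminin receptor chain, followed at 345 ± 55.9 and 357 ± 48.1 FPKM. The log2 fold changes were -0.14 (adjusted p = 0.222) and -0.02 (adjusted p = 0.927). ITGB1 measured 4574, 4478, 4553 and 4519.5 CPM in DMSO replicates 1 to 4 and 3922, 4658, 3829 and 4011 CPM in DPT replicates 1 to 4. Only DPT replicate 2 lay above the DMSO libraries, and the other 3 DPT libraries lay below all of them. ITGB1 was called lower without DPT replicate 2 (-0.21, adjusted p = 0.0188) and with the pair term (-0.15, adjusted p = 0.0115).

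Receptors for collagen went in opposite directions. ITGA2, whose pairing with ITGB1 gives a receptor of epithelial cells and platelets, measured 156, 144.5, 98.4 and 141 CPM in DMSO replicates 1 to 4. In DPT replicates 1 to 4 it measured 317, 139, 393.5 and 349 CPM. DPT replicates 1, 3 and 4 lay above every DMSO library and DPT replicate 2 lay within their range. ITGA2 (ENSG00000164171, chromosome 5, 52989326 to 53094779 of GRCh38) rose 2.22-fold (log2 fold change 1.15, SE 0.282, adjusted p = 0.0302). The difference was 1.26 log2 in the 6 libraries without the pair (adjusted p = 1.84e-10) and 0.50 log2 between the 2 libraries of the pair. This interaction was called (-0.76 log2, adjusted p = 0.00708), as it was for 0.941% of all tested genes. Leaving out either library of the pair kept the ITGA2 call, and leaving out any other library ended it (adjusted p 0.0674 to 0.0920).

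ITGA11, a fibrillar collagen receptor chain typical of fibroblasts, measured 29.2, 28.9, 24.2 and 30.3 CPM in DMSO and 13.5, 12.6, 11.8 and 13.8 CPM in DPT. Every DPT library lay below every DMSO library, as for 8.73% of all tested genes. ITGA11 (ENSG00000137809, chromosome 15, 68296533 to 68432162) fell by 1.12 log2 (SE 0.0964, adjusted p = 0.000416) and stayed called on leaving out any single library (adjusted p at most 0.00339).

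ITGA1, the alpha chain of another collagen receptor that also binds basement membrane collagen, measured 124, 119.6, 75.4 and 117 CPM in DMSO and 98.9, 55.7, 87.3 and 93.9 CPM in DPT. The pair was low in both groups, and the groups overlapped through DMSO replicate 3 (log2 fold change -0.38, adjusted p = 0.265). With the pair term ITGA1 was called lower (-0.38, adjusted p = 2.02e-05). Exons of PELO overlap ITGA1 on the same strand, so the counts of the genes may not be fully separated. PELO itself rose from 70.7 ± 3.70 to 92.2 ± 9.84 CPM (log2 fold change 0.38, adjusted p = 0.0207). ITGA10, a chondrocyte collagen receptor chain, was low at 1.02 to 2.22 CPM over all 8 libraries (adjusted p = 0.872).

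In FPKM, the makeup of the collagen receptor chains differed between the groups in every library. ITGA2 took 52.4% to 55.0% of their summed FPKM in DMSO and 69.0% to 81.7% in DPT. ITGA1 took 35.9% to 38.8% in DMSO and 16.1% to 25.0% in DPT, and ITGA11 7.29% to 9.84% and 1.80% to 4.75%. The ratio of ITGA2 to ITGA1 was 1.36 to 1.49 in DMSO and 2.76 to 5.07 in DPT, with 1.46 and 2.76 in the pair. The shares of all 3 chains did not overlap between the groups, although the CPM of ITGA2 and of ITGA1 did. The share of ITGA10 overlapped. Shares within a set are tied, since a rise of any chain lowers the shares of the others.

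Beta chains that pair with ITGAV bind RGD ligands, and ITGB8 with ITGAV is known as an activator of latent TGF-beta. ITGB8 measured 46.8, 41.1, 44.8 and 38.9 CPM in DMSO and 19.1, 18.5, 18.4 and 21.1 CPM in DPT. All 4 DPT libraries were below all 4 DMSO libraries, and the pair did not stand apart in either group. ITGB8 (ENSG00000105855, chromosome 7, 20330702 to 20415754) fell by 1.15 log2 (SE 0.0844, adjusted p = 0.000159), with an adjusted p of at most 0.00162 on leaving out any single library.

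ITGB3, the beta chain of the vitronectin receptor, measured 24.1, 21.2, 22.6 and 20.04 CPM in DMSO and 28.7, 33.0, 32.3 and 29.8 CPM in DPT. Every DPT library lay above every DMSO library, as for 9.50% of all tested genes. ITGB3 (ENSG00000259207, chromosome 17, 47253846 to 47311816) rose 1.41-fold (log2 fold change 0.49, SE 0.0842, adjusted p = 0.00737) and stayed called on leaving out any single library (adjusted p at most 0.0310). The other row labelled ITGB3 (ENSG00000259753), which the annotation names AC068234.1 and which shares exons with ITGB3, had 0 to 8.13 counts a library and was not tested.

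ITGB5, also a vitronectin receptor chain and the most abundant of these partners after ITGB1, measured 159, 159.7, 172 and 171.5 CPM in DMSO and 140, 159.06, 120.4 and 133 CPM in DPT. The DPT libraries were all lower, DPT replicate 2 by a narrow margin, and the call was not reached (log2 fold change -0.26, adjusted p = 0.0828). It was reached without DPT replicate 2 (-0.34, adjusted p = 0.0102) and with the pair term (-0.27, adjusted p = 0.00134). ITGB6, the epithelial partner of ITGAV, had 1 to 5 counts in DMSO libraries and 6 to 9 in DPT libraries, too few to test.

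The alpha chains themselves were not called in 8 libraries. ITGAV measured 277, 241, 343 and 275 CPM in DMSO and 226, 281, 239 and 243 CPM in DPT (log2 fold change -0.20, adjusted p = 0.298). DMSO replicate 3 and DPT replicate 2 were the highest of their groups. ITGA5, the fibronectin receptor chain, measured 393, 382.5, 366 and 402 CPM in DMSO and 468, 422, 416 and 417 CPM in DPT, with every DPT library above every DMSO library. Its log2 fold change of 0.16 was not called (adjusted p = 0.151). With the pair term ITGAV was called lower (-0.19, adjusted p = 0.00714) and ITGA5 higher (0.16, adjusted p = 0.0115).

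Among ITGB3, ITGB5, ITGB6 and ITGB8 the summed FPKM was 50.7 to 58.3 in DMSO and 42.3 to 50.6 in DPT. ITGB3 took 6.497% to 7.88% of it in DMSO and 10.7% to 14.2% in DPT, and ITGB8 8.25% to 10.7% and 4.12% to 5.83%. ITGB5 remained the main partner, at 81.1% to 84.99% and 79.7% to 84.3%. The ratio of ITGB3 to ITGB8 was 0.735 to 0.812 in DMSO and 2.27 to 2.90 in DPT, so that the less abundant of these chains in DMSO was the more abundant in DPT.

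**Figure D2:**
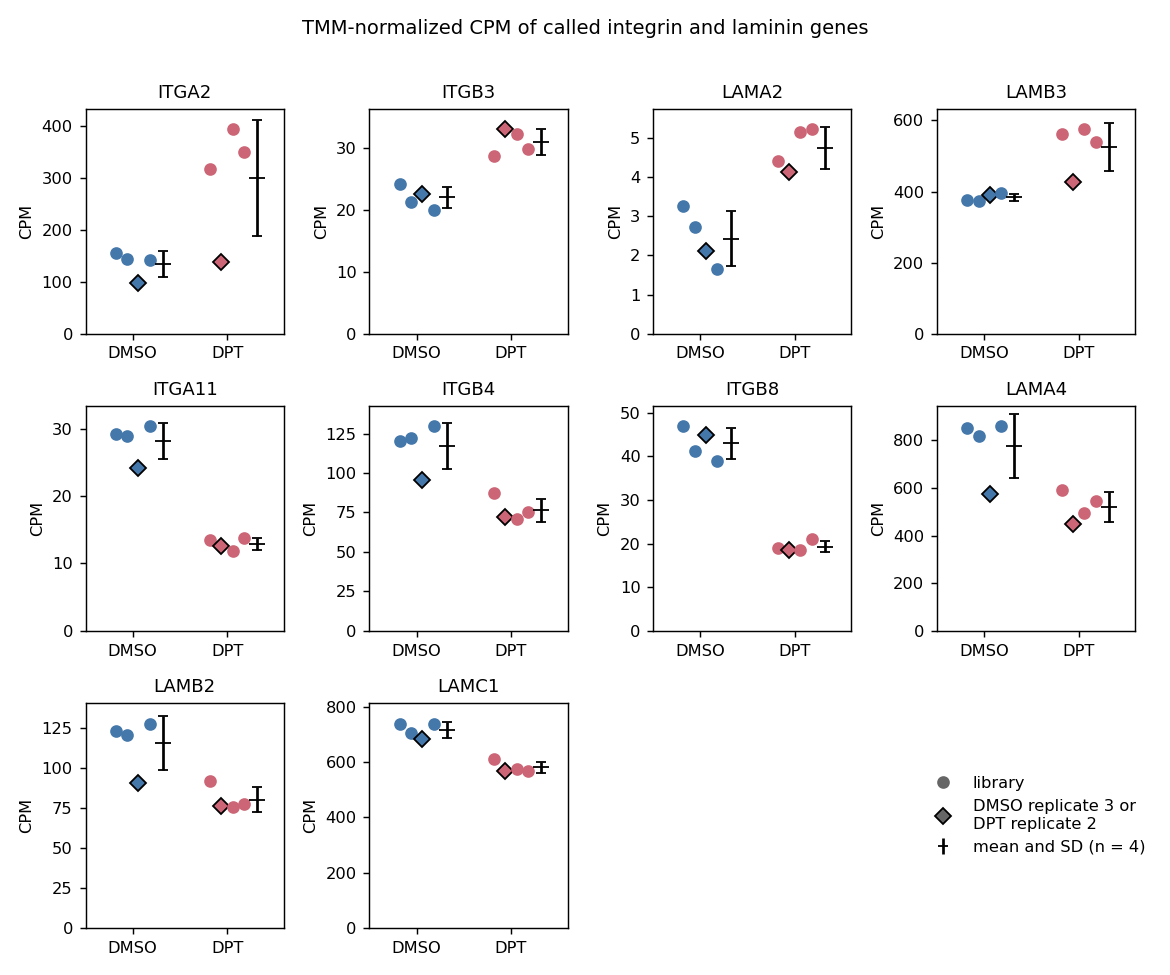
TMM-normalized CPM (y axis, from 0) of called integrin and laminin genes in each DMSO and DPT library, with the mean and SD (n = 4) beside the points and diamonds for DMSO replicate 3 and DPT replicate 2. The groups do not overlap for ITGB8 (38.9 to 46.8 CPM in DMSO, 18.4 to 21.1 CPM in DPT), while for ITGA2 the DPT diamond at 139 CPM lies among the DMSO points.

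Among receptors for laminin, ITGB4 fell. ITGB4 pairs with ITGA6 and anchors keratin filaments to laminin at hemidesmosomes. It measured 120.6, 122.0, 95.8 and 129 CPM in DMSO and 87.1, 71.9, 71.2 and 75.0 CPM in DPT. The lowest DMSO library, replicate 3, was still above the highest DPT library. ITGB4 (ENSG00000132470, chromosome 17, 75721328 to 75757818) fell by 0.62 log2 (SE 0.104, adjusted p = 0.00702), and its call held on leaving out any single library (adjusted p at most 0.0301).

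Its partner ITGA6 measured 95.4, 97.3, 185 and 94.5 CPM in DMSO and 151, 233, 150.6 and 149 CPM in DPT. Within each group the library of the pair was the highest, and DMSO replicate 3 lay above DPT replicates 1, 3 and 4. ITGA6 was not called (log2 fold change 0.53, adjusted p = 0.193). It was called higher without DMSO replicate 3 (0.83, adjusted p = 0.0102) and with the pair term (0.57, adjusted p = 7.85e-07). The pair exceeded the other 6 libraries by 0.79 log2, in a comparison of the pair with the others that called 39.3% of all tested genes. The pair was chosen from these same counts, so the comparison is not an independent test.

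ITGA3 was at 1829, 1745, 1264 and 1841 CPM in DMSO and 1877, 1374, 1643 and 1673 CPM in DPT, with the pair lowest in both groups. ITGA7, a muscle laminin receptor chain, was at 5.22 to 7.52 CPM in DMSO and 5.26 to 6.996 CPM in DPT (adjusted p = 0.585). ITGA3 took 88.6% to 95.6% of the summed FPKM of ITGA3, ITGA6 and ITGA7 in DMSO and 87.0% to 93.3% in DPT.

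Of 10 tested laminin chains 3 were called higher and 3 lower, beside 5.68% and 5.29% of all tested genes. With the pair term 4 were higher and 4 lower, beside 16.9% and 17.0% of all tested genes. LAMA3 and LAMB3 are chains of the laminin trimer of epithelial anchorage, the ligand of ITGA3 and ITGA6 integrins. LAMB3 measured 377, 372.6, 389 and 395 CPM in DMSO and 563, 427, 575 and 540.2 CPM in DPT. The DPT libraries were all higher, and DPT replicate 2 was nearest to DMSO. LAMB3 (ENSG00000196878, chromosome 1, 209614870 to 209652466) rose 1.37-fold (log2 fold change 0.46, SE 0.0934, adjusted p = 0.0148). It rose by 0.55 log2 without the pair and differed by 0.13 log2 within it (interaction -0.42 log2), where each treatment has a single library. Leaving out DMSO replicate 1 or 2, or DPT replicate 3 or 4, ended the call (adjusted p 0.0517 to 0.0534). LAMA3 measured 42.1, 41.5, 47.2 and 41.9 CPM in DMSO and 49.7, 40.7, 49.0 and 47.7 CPM in DPT. LAMA3 was not called in all 8 libraries (log2 fold change 0.12, adjusted p = 0.418) or with the pair term (0.11, adjusted p = 0.251). It was called higher in the 6 libraries without the pair (0.22, adjusted p = 0.0119) and differed by -0.21 log2 within the pair.

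Sequences before a RefSeq start of LAMB3 and of LAMA3 are shown because these were the only members of which a RefSeq promoter window held the AP-1 heptamer TGACTCA. AP-1 is the family of FOS and JUN factors. RefSeq windows (GRCh38.p14) were found for 26 of the 38 symbols, and the 250 bases before each start were searched on both strands, on which the heptamer reads TGACTCA or TGAGTCA. Of 35116 such windows 4.20% held it. Capitals mark the heptamer, and the stretches are written 5′ to 3′ on the strand of the gene.
LAMB3, chr1:209651395-209651624, minus strand: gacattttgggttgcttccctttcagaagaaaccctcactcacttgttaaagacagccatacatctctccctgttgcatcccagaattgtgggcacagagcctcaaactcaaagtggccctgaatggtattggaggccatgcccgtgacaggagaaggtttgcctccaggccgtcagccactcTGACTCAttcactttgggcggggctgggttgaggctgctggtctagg
LAMA3 site 1, chr18:23872884-23872913, plus strand: ctggcacaggcTGACTCAtgtgtgaagttt
LAMA3 site 2, chr18:23872940-23872969, plus strand: ccttcctcaccTGAGTCAggcaggcccggg
The LAMB3 heptamer begins 67 bases before the start of 1 of 3 listed LAMB3 windows, and the other 2 windows hold none. The LAMA3 heptamers begin 125 and 69 bases before the RefSeq start and lie in an exon of GENCODE release 29. That window lies inside the annotated LAMA3 gene (chromosome 18, 23689443 to 23956222), and no window at the upstream end of the gene was searched. The LAMB3 window with the heptamer also lies inside its annotated gene. By call, the heptamer stood in a window of 1 of the 3 rising members that have one, 0 of 5 falling members and 1 of 12 members not called. These are counts of genes, some with several windows, while the 4.20% above is a share of windows. These matches are descriptions of sequence, and no binding was measured.

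LAMA4, LAMC1 and LAMB2 fell. LAMA4, the most abundant laminin alpha chain here, measured 849, 816, 576 and 857 CPM in DMSO and 591, 447, 495 and 546 CPM in DPT. DMSO replicates 1, 2 and 4 were above every DPT library, and DMSO replicate 3 lay just under DPT replicate 1. LAMA4 (ENSG00000112769, chromosome 6, 112108760 to 112254939) fell by 0.58 log2 (SE 0.136, adjusted p = 0.0263). Leaving out DMSO replicate 1, 2 or 4, or DPT replicate 3 or 4, ended the call (adjusted p 0.0664 to 0.0842), and it held with the pair term (-0.56, adjusted p = 1.39e-06).

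LAMC1, the gamma chain of most laminins, measured 739.3, 706, 682 and 739.3 CPM in DMSO and 610.6, 566, 575 and 569 CPM in DPT. All DPT libraries were lower. LAMC1 (ENSG00000135862, chromosome 1, 183023460 to 183145592) fell by 0.30 log2 (SE 0.0588, adjusted p = 0.0122), a call lost without DMSO replicate 1 (adjusted p = 0.0502). LAMB2, a beta chain of muscle, kidney and vessel basement membranes, measured 123, 120.7, 90.8 and 128 CPM in DMSO and 91.9, 75.9, 75.5 and 77.6 CPM in DPT, where DMSO replicate 3 was just below DPT replicate 1. LAMB2 (ENSG00000172037, chromosome 3, 49121114 to 49133118) fell by 0.53 log2 (SE 0.114, adjusted p = 0.0187). Its call ended on leaving out DMSO replicate 1, 2 or 4, or DPT replicate 3 or 4 (adjusted p 0.0576 to 0.0655).

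LAMB1, the widespread beta chain, measured 498, 491, 435 and 491 CPM in DMSO and 423, 381, 387 and 422 CPM in DPT. The groups did not overlap, and the value stood at the threshold (log2 fold change -0.25, adjusted p = 0.0508). LAMB1 was called lower without DMSO replicate 3 (-0.30, adjusted p = 0.0170) and with the pair term (-0.25, adjusted p = 0.000232). Its exons overlap those of DLD on the opposite strand, and the strand setting of the counting is not stated in the sources used here.

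LAMA2, the alpha chain of muscle laminin, was at a low level, with 3.25, 2.71, 2.10 and 1.65 CPM in DMSO and 4.41, 4.14, 5.14 and 5.21 CPM in DPT. These are 25 to 48 counts per DMSO library and 69 to 86 per DPT library. All DPT libraries were higher, and LAMA2 (ENSG00000196569, chromosome 6, 128883141 to 129516569) rose 1.95-fold (log2 fold change 0.96, SE 0.224, adjusted p = 0.0251). Leaving out DMSO replicate 2 or 4, or any DPT replicate but 2, ended the call (adjusted p 0.0528 to 0.0791).

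LAMA1 and LAMA5 were lowest in the pair. LAMA1, a chain of early embryonic basement membranes, measured 105.6, 98.8, 58.4 and 109.9 CPM in DMSO and 122, 57.7, 131 and 119.5 CPM in DPT. It was not called in 8 libraries (log2 fold change 0.21, adjusted p = 0.675) and was called higher with the pair term (0.19, adjusted p = 0.0177). LAMA5, a chain of adult epithelial laminins, measured 269, 262, 191 and 269 CPM in DMSO and 294, 194, 242 and 257 CPM in DPT (log2 fold change -0.01, adjusted p = 0.981). The pair lay below the others by 0.97 log2 for LAMA1 and 0.47 log2 for LAMA5. That comparison called 39.3% of all tested genes. The pair was chosen from these same counts, so the comparison is not an independent test.

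By FPKM share, LAMB3 took 49.7% to 53.9% of the laminin beta chains in DMSO and 60.03% to 66.9% in DPT, while LAMB1 took 38.8% to 41.2% and 28.1% to 33.7%. LAMA4 took 81.9% to 84.4% of the alpha chains in DMSO and 74.04% to 77.7% in DPT, and LAMA5 9.06% to 10.01% and 12.5% to 13.6%. The groups did not overlap in any of these shares, but they overlapped in the shares of LAMA1 and LAMA3. Shares within a set are tied, since a fall of any chain raises the shares of the others. LAMA5 itself was not called (log2 fold change -0.01, adjusted p = 0.981). How often such shares separate over all genes was not computed.

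**Figure D3:**
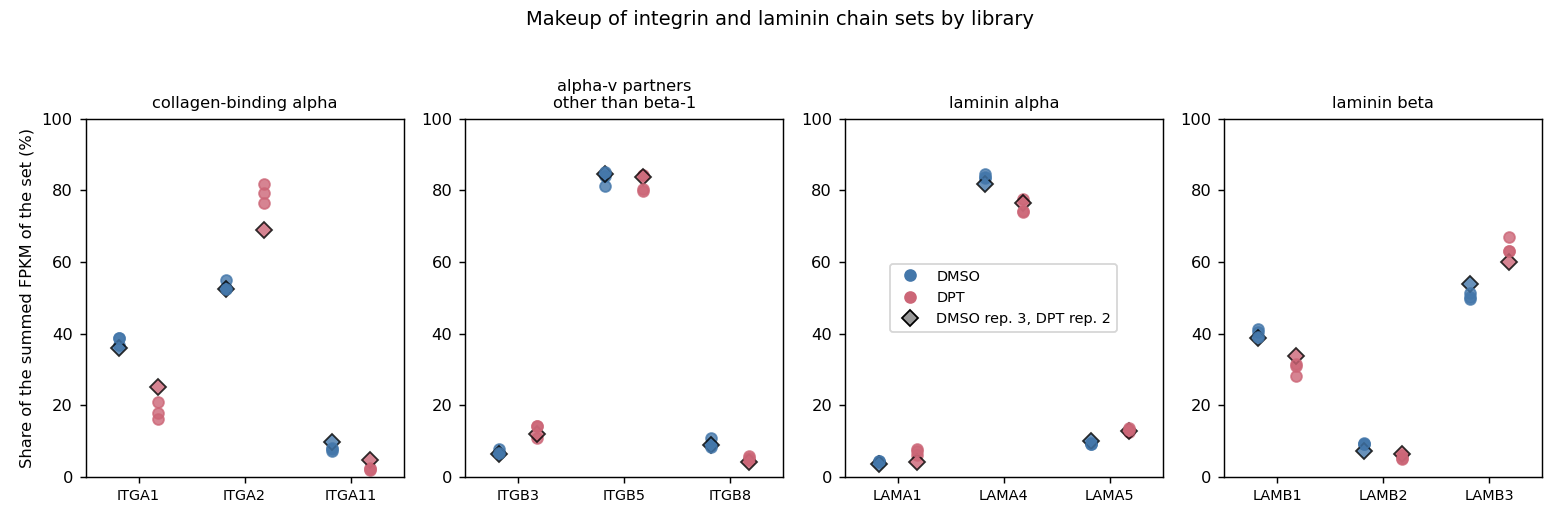
Share of the summed FPKM of each chain set (y axis, percent) taken by its main chains in each library, with DMSO in blue, DPT in red and diamonds for DMSO replicate 3 and DPT replicate 2. ITGA2 moves from 52.4% to 55.0% in DMSO to 69.0% to 81.7% in DPT, and LAMB3 from 49.7% to 53.9% to 60.03% to 66.9%, with the diamonds on the side of their own group.

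Leukocyte integrins were at or near the floor, apart from ITGAX and ITGAE. ITGAX, the CD11c chain of myeloid cells, measured 10.8, 10.8, 7.47 and 11.6 CPM in DMSO and 17.3, 8.87, 15.6 and 14.95 CPM in DPT, with the pair lowest in both groups. It was not called (log2 fold change 0.48, adjusted p = 0.184), and was called higher without DPT replicate 2 (0.65, adjusted p = 0.0178) and with the pair term (0.47, adjusted p = 0.00197). ITGB2, the beta chain with which ITGAX pairs, had 0 to 9 counts a library. ITGAE, the chain of intraepithelial T cells, was at 3.93 to 7.01 CPM in DMSO and 5.51 to 5.99 CPM in DPT (adjusted p = 0.609), and its exons overlap HASPIN on the opposite strand. ITGAL, ITGAM and ITGAD had at most 6, 20 and 3 counts in a library, and ITGB7 at most 6.

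ITGA4, a receptor chain for fibronectin and VCAM1, measured 9.35, 8.81, 14.2 and 9.23 CPM in DMSO and 7.10, 10.4, 5.62 and 8.58 CPM in DPT (log2 fold change -0.39, adjusted p = 0.292). The pair held the highest value of each group, and with the pair term ITGA4 was called lower (-0.39, adjusted p = 0.0280). Without the pair it was not called (-0.36, adjusted p = 0.0857). The remaining members that were not tested, ITGA2B, ITGA8, ITGA9, LAMB4 and LAMC3, had at most 8, 1, 12, 3 and 11 counts in a library.

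The plot of differences inside and outside the pair sets the members side by side. ITGB8 differed by -1.28 log2 within the pair and by -1.11 in the other 6 libraries, ITGA11 by -0.93 and -1.18, ITGB3 by 0.54 and 0.47, and LAMA2 by 0.98 and 0.95. ITGA2 differed by 0.50 log2 within the pair and by 1.26 in the other 6 libraries, and LAMB3 by 0.13 and 0.55. The pair holds a single library of each treatment, so differences within it have no replicate.

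**Figure D4:**
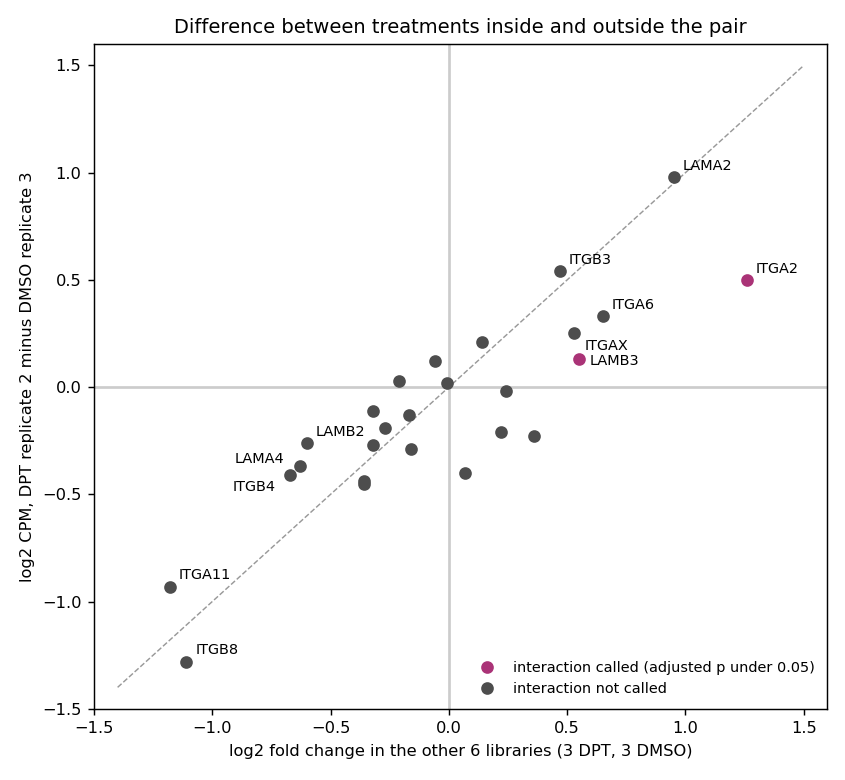
Difference between DPT replicate 2 and DMSO replicate 3 in log2 CPM (y axis) against the log2 fold change in the other 6 libraries (x axis) for tested members, with the dashed line where both are equal. ITGA2 (0.50 against 1.26) and LAMB3 (0.13 against 0.55) lie below the line, while ITGB8, ITGA11, ITGB3 and LAMA2 lie near it. Colour marks a called interaction, which rests on a single library of each treatment in the pair.

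Genes that act beside integrins and laminins were read from lists written by function. Among integrin adaptors and activators, some of which join integrin tails to actin, 5 of 32 tested genes rose and 6 fell. Among all tested genes 5.68% rose and 5.29% fell. The median log2 fold change was 0.01 over the tested list genes and -0.00 over all tested genes. TNS3, a tensin that binds integrin tails, fell from 241 ± 16.5 to 99.0 ± 9.26 CPM (log2 fold change -1.28, adjusted p = 0.000107). TNS2, another tensin, fell from 78.2 ± 5.34 to 44.05 ± 3.36 CPM (-0.83, adjusted p = 0.000590). NEDD9, a scaffold downstream of focal adhesion kinase, rose from 8.33 ± 1.40 to 17.3 ± 1.49 CPM (1.05, adjusted p = 0.00206). TLN2, a talin, rose from 75.6 ± 4.10 to 120.0 ± 12.8 CPM (0.67, adjusted p = 0.00221). TLN1, the main talin, and PTK2, focal adhesion kinase, were not called in 8 libraries (-0.20, adjusted p = 0.0715, and -0.05, adjusted p = 0.664). With the pair term TLN1 was called lower (-0.20, adjusted p = 0.00285) and PTK2 was not called (adjusted p = 0.488). Under the pair term 10 were higher and 10 lower, against 16.9% and 17.0% of all tested genes. The lower count was 3 on leaving out any library but those of the pair.

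Of 20 tested basement membrane partners of laminins 0 rose and 8 fell, with a median of -0.32 (all tested genes: 5.68% rose and 5.29% fell). HSPG2 (perlecan), a heparan sulfate proteoglycan of the basement membrane, fell from 748 ± 21.9 to 403 ± 64.9 CPM (-0.89, adjusted p = 0.00176). COL4A1, a chain of the collagen network beneath laminin, fell by 0.41 log2 (adjusted p = 0.0102). NID1, which bridges LAMC1 and that network, fell by 0.44 log2 (adjusted p = 0.0452), a call kept without DMSO replicate 3 or DPT replicate 2 and lost without any other single library (adjusted p 0.0508 to 0.126). Under the pair term 2 were higher and 12 lower (all tested genes: 16.9% and 17.0%). The lower count was 2 without DMSO replicate 1 or 4 or DPT replicate 3 or 4, 3 without DMSO replicate 2 and 5 without DPT replicate 1.

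Of 11 tested collagen ligands 1 rose and 5 fell, with a median of -0.31, beside 5.68% and 5.29% of all tested genes. COL13A1, a transmembrane collagen, rose from 2.31 ± 0.305 to 7.25 ± 1.14 CPM (1.64, adjusted p = 0.00103), and the fibrillar collagen genes COL3A1 and COL1A2 fell by 1.45 and 1.23 log2 (adjusted p = 0.00120 and 0.00157). Under the pair term 1 was higher and 8 lower, beside 16.9% and 17.0% of all tested genes. The lower count was 3 on leaving out any DMSO library but replicate 3, or DPT replicate 3 or 4. COL4A1 and COL4A2 stand on this list and on that of the basement membrane.

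Of 21 tested RGD ligands and latent TGF-beta genes 0 rose and 4 fell, with a median of -0.18, while 5.68% of all tested genes rose and 5.29% fell. VTN (vitronectin), the ligand of ITGB3 and ITGB5 integrins, fell from 20.7 ± 3.39 to 11.5 ± 0.746 CPM (-0.84, adjusted p = 0.00473). FBN1 (fibrillin-1) fell by 0.97 log2 (adjusted p = 0.00592). FN1 (fibronectin) fell by 0.41 log2 (adjusted p = 0.0359), a call kept without DPT replicate 2 and lost without any other single library (adjusted p 0.0544 to 0.110). TGFB1, whose latent form ITGB8 integrin binds, was not called (-0.05, adjusted p = 0.824). Under the pair term 2 were higher and 9 lower, while the shares of all tested genes were 16.9% and 17.0%. Without DPT replicate 2 there were 2 higher and 7 lower, and without any other library but DMSO replicate 3 there were 2 lower.

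Of 10 tested hemidesmosome and laminin-integrin partners 2 rose and 1 fell, with a median of -0.17, set against 5.68% and 5.29% of all tested genes. COL17A1, a transmembrane collagen of hemidesmosomes, rose from 5.00 ± 0.493 to 11.7 ± 3.28 CPM (1.23, adjusted p = 0.00786), and the tetraspanin CD9 rose from 12.8 ± 0.785 to 22.3 ± 2.32 CPM (0.80, adjusted p = 0.00191). KRT18, given above, was the 1 that fell. Under the pair term 2 were higher and 4 lower, set against 16.9% and 17.0% of all tested genes. The lower count was 3 without DPT replicate 2 and 0 without DPT replicate 3 or 4.

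**Figure D5:**
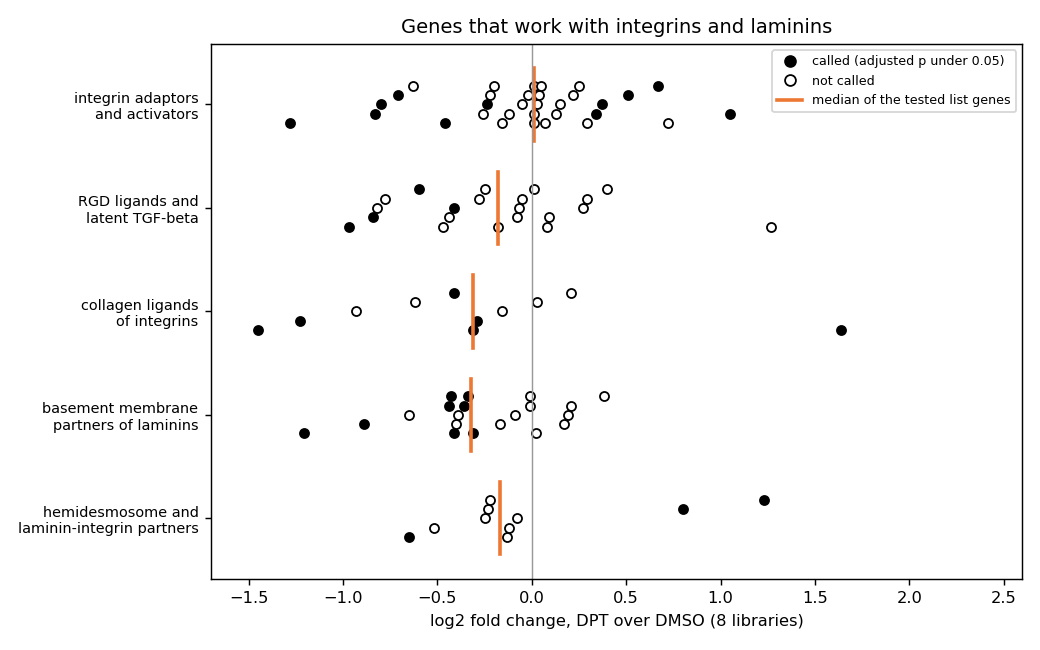
Log2 fold change in 8 libraries (x axis) of each tested gene on the 5 lists of integrin and laminin partners, filled where called, with the median of each list as an orange bar. The medians are 0.01 for integrin adaptors, -0.18 for RGD ligands, -0.31 for collagen ligands, -0.32 for basement membrane partners and -0.17 for hemidesmosome partners.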

How the data were processed

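The submitters' processing notes name the build hg38 and the tools RSEM, DESeq2, HISAT2, StringTie 1.3.1 and fastp 0.18.0, with no roles or settings. The deposited table holds an expected count per gene and library (10.8% are not whole) and the authors' FPKM per gene and library, both per the file headers.

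Expected counts were rounded. edgeR 4.0.16 (R 4.3.3) with filterByExpr (minimum count 10, minimum total 15) kept 12648 genes. CPM and tests used TMM factors. The quasi-likelihood test compared the groups over all 8 libraries, with Benjamini-Hochberg adjustment over all tested genes and a threshold of 0.05. SE was derived from that test, as the absolute log2 fold change divided by the square root of the F statistic. At about 15 counts per CPM in the smallest library, members under 1 CPM were too shallow to compare. FPKM was used only for levels between genes and for shares, with no test. In simulated counts for 12656 genes, 198 were given 2-fold changes. Of these 98.0% were recovered, with 15 false calls among the rest. The simulation gave all genes the same dispersion and set no libraries apart as the pair was. It therefore does not show how well smaller changes are found in these data.

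Alternatives were DESeq2 1.42.0, its size factors, limma-trend 3.58.1 (prior count 2), no filter, a replicate block and leaving out each library. The pair term, its interaction with treatment and a fit without the pair were added after the data were seen. Coordinates are from GENCODE release 29 (GRCh38), which held all 39 identifiers.

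Members, lists and motif were chosen with earlier results of these data known. Library values are given for members that were called or averaged at least 20 CPM in a group, and for some lower ones. From each list the 2 higher and 2 lower called genes of smallest adjusted p are named, with TLN1, PTK2, FN1, TGFB1 and NID1. PELO, DLD and HASPIN were named after their overlap with members was seen. Some items are counted in the totals and not reported here by name.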

Additional observations from a re-analysis of the deposited data

Results flagged for a closer look

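Within each group of 4 libraries, the distance from the highest or lowest library to its neighbour was divided by the range of the group and set against Dixon's 95% critical value for 4 samples. Of 52 groups of the tested members reported here 14 exceeded it, where chance flags about 1 in 20 independent groups. These groups are not independent, because they share the same 8 libraries. The share flagged over all tested genes was not computed, so the number is not a result about the members. The pair was called apart from the other libraries for 39.3% of all tested genes. In 8 of the 14 the library set apart was DMSO replicate 3 and in 3 it was DPT replicate 2.

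DMSO replicate 3 was low for ITGA3 at 1264 CPM (1745 to 1841 CPM in the other 3), LAMB1 at 435 CPM (491 to 498 CPM), LAMA4 at 576 CPM (816 to 857 CPM), LAMA5 at 191 CPM (262 to 269 CPM) and ITGA1 at 75.4 CPM (117 to 124 CPM). It was high for ITGA6 at 185 CPM (94.5 to 97.3 CPM), LAMA3 at 47.2 CPM (41.5 to 42.1 CPM) and ITGA4 at 14.2 CPM (8.81 to 9.35 CPM). DPT replicate 2 was high for ITGA6 at 233 CPM (149.4 to 151.3 CPM) and ITGAE at 5.99 CPM (5.51 to 5.58 CPM), and low for LAMA1 at 57.7 CPM (119.5 to 131 CPM).

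The other flags were ITGA5 at 468 CPM (416 to 422 CPM) and LAMB2 at 91.9 CPM (75.5 to 77.6 CPM) in DPT replicate 1, and ITGA7 at 6.996 CPM (5.26 to 5.45 CPM) in DPT replicate 3.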

How the results depend on the processing

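Of the called members reported here, ITGB8, ITGA11 and ITGB4 were called under every alternative, and no called member changed direction. With the replicate number as a block 1 member was called higher and 3 lower, with the pair term 9 and 12, and in the 6 libraries without the pair 10 and 11. Leaving out 1 library gave 2 to 6 higher and 3 to 8 lower. DESeq2, its size factors, limma-trend and no filter gave 5 higher each, and 8, 7, 7 and 6 lower. Shares over all tested genes were computed only for the 8-library fit, the pair term and the fit without the pair. Whether the members lose or gain calls more than other genes in the remaining settings was not tested. Same-numbered libraries deviated from their group means with correlations of 0.204, -0.314, -0.396 and 0.209, and not every library correlated best with its own number. The largest correlation was 0.676, between DMSO replicate 3 and DPT replicate 2. With group means of 4 libraries and the pair standing apart, these values cannot decide whether the numbers mark shared preparations. Members under the filter, at 0 to 20 counts a library, could not be compared at this depth.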

Other observations

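The length of message implied by the deposited values, which is the count divided by FPKM and library total, was computed for the 9778 tested genes of at least 5 CPM in every library. It differed between DPT and DMSO by a median of -0.00 log2, with 5% of genes below -0.13 and 5% above 0.08. ITGA7 had 3407 to 4068 bases in DMSO and 2203 to 3087 bases in DPT, a difference of -0.46 log2, so that its FPKM was higher in DPT (1.76 ± 0.398 against 2.21 ± 0.279, n = 4) although its CPM was not (6.49 ± 1.09 against 5.79 ± 0.808). Exons of ITGA7 overlap METTL7B and BLOC1S1 on the opposite strand, and their part in this difference was not tested. For LAMC1, LAMA1 and LAMB2 the implied length was the same within 3 bases in all 8 libraries.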
